A study of Mus musculus with 6 samples.

Results

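The Nanog, Dppa3 and Gdf3 cluster is a stretch of mouse chromosome 6 with 5 coding genes that lie side by side: Apobec1, Gdf3, Dppa3, Nanog and Slc2a3. The region was drawn from the outermost gene ends, those of Apobec1 and of Slc2a3, with 100 kb added on both sides. It spanned chr6:122477792-122901640 in mm10, a length of 424 kb, and held 20 of the 22973 control H3K27ac peaks. The 5 genes were 5 of 27706 protein-coding and lincRNA genes. The rule itself uses gene ends and no measured value, but the genes were chosen with earlier results of these data known. H3K27ac is acetylation of lysine 27 of histone H3, a mark of active promoters and enhancers. It was mapped by ChIP-seq with the antibody ab4729 in E14 mouse embryonic stem cells (mESCs).

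The cells were of the E14Tg2A line with Rosa26-Cre and Oct4-IRES-Puro, grown in N2B27 medium with LIF, PD0325901 and CT-99021, which keep mESCs in a naive pluripotent state. All groups shared this line and medium, and chromatin of the human line HEK293T was added to every sample as a spike-in. Control cells received DMSO. The other groups received NVP-2 at 100 nM, an inhibitor of the kinase CDK9, or actinomycin D (ActD) at 800 nM, which blocks RNA polymerases, both for 120 min. Each of the 3 groups had 2 replicates. The peaks described here come from 1 list that pools both control replicates, and the treated samples were not analysed here. The list gives the start and end of each peak and no height, count or score. There is therefore no replicate error behind any value, no test was made, and all comparisons are descriptions. The sequencing depth cannot be read from the list.

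Nanog encodes a homeodomain transcription factor that sustains self-renewal of pluripotent cells together with Oct4 and Sox2. Dppa3 (Stella) encodes a maternal factor that shields DNA methylation from removal in the early embryo, and Gdf3 a ligand of the TGF-beta family that acts on Nodal signalling. Apobec1 encodes the cytidine deaminase that edits apolipoprotein B mRNA, and Slc2a3 the glucose transporter GLUT3. Large enhancers on both sides of Nanog are a known feature of this locus in mESCs, and the one upstream has been linked to Dppa3 as well as to Nanog.

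The promoter bases of Nanog and Apobec1 are shown because both lay inside wide peaks. They are the 250 bases before the start of transcription, from RefSeq on GRCm38.p6, at chr6:122707239-122707488 on the plus strand for Nanog and at chr6:122602445-122602694 on the minus strand for Apobec1. Of the 5 genes, 2 matched an entry of that promoter table, and Dppa3, Gdf3 and Slc2a3 did not. Capitals mark the motif matches listed after the sequences.
Nanog promoter: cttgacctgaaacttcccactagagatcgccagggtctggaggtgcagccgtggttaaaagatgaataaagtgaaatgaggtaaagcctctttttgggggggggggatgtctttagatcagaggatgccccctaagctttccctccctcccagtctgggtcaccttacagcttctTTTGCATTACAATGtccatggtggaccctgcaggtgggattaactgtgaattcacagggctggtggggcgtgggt
Apobec1 promoter: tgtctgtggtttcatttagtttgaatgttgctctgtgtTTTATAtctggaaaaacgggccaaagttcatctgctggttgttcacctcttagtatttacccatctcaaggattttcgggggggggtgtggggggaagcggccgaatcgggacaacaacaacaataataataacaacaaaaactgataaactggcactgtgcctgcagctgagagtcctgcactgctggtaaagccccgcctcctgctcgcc

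The motifs searched on both strands were the octamer ATGCAAAT, bound by Oct4, the Sox-type CATTGT, a composite of CATTGT, any 1 base and then ATGCAAA, the Esrrb-type TCAAGGTCA, the Klf-type GGGNGTGGC, the Stat-type TTCCNGGAA, and the TATA box TATAAA. The composite contains the Sox-type letters and shares 7 letters with the octamer, and overlapping matches were all kept. The capitals in the Nanog promoter are the composite, which lies on the minus strand at chr6:122707414-122707427 and begins 75 bases before the start. The Sox-type match, 67 bases before the start, is a part of it. These letters are those of the Oct4-Sox2 element known at Nanog, so the match itself is background. The composite was rare elsewhere. It was found in 2 of 32851 RefSeq promoter windows of 250 bases (0.00609%), both of them entries of Nanog, and at 151 places on the autosomes. Of those 151 matches, 9 lay inside control peaks (5.96%), where peaks covered 3.45% of the autosomes. The capitals in the Apobec1 promoter are a TATA-box match on the strand opposite to the gene, the plus strand of the genome, 212 bases before the start, and 12.4% of all promoter windows held such a match. Among all promoter windows, 1.60% held the octamer, 10.7% the Sox-type, 0.387% the Esrrb-type, 5.11% the Klf-type and 0.913% the Stat-type motif.

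Of the 5 genes, 4 had a control peak within 1 kb of their transcription start site (TSS), where 41.7% of all 27706 promoters did. The unmarked gene was Dppa3. Each gene was represented by the start of its isoform that spans most of the genome. Of the 17 isoforms of the 5 genes, the 15 of Apobec1, Gdf3, Nanog and Slc2a3 each started within 1 kb of a peak, and neither of the 2 isoforms of Dppa3 did. These isoforms are not separate observations, since all those of Apobec1 and Gdf3 started in 1 peak and all those of Nanog in another. The share over all transcripts is not given here. The TSSs of 3 genes, Nanog, Gdf3 and Apobec1, lay in a peak at least 10 kb wide, against 4.59% of all genes. Nanog and Gdf3 lay from end to end inside 1 peak, as did 2.72% of all genes.

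**Figure D1:**
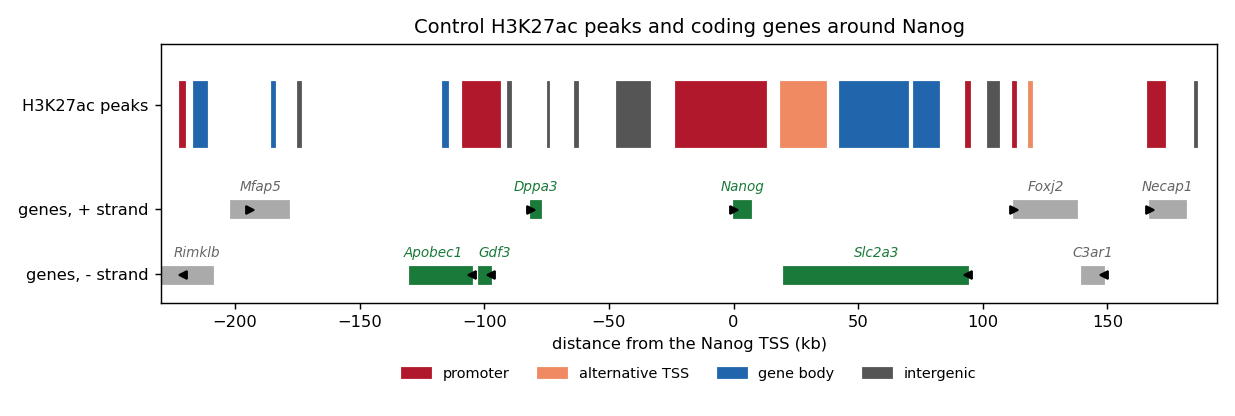
Control H3K27ac peaks (upper row) and the coding genes reported here by strand (lower rows) against the distance from the Nanog TSS in kb. Arrowheads mark the TSSs, green the 5 genes of the cluster and grey their neighbours, and colours of the peaks mark whether they lie within 1 kb of a gene's main TSS, within 1 kb of another isoform's TSS, elsewhere in a gene or between genes. Of the 6 peaks of at least 10 kb, 5 lie between 46.6 kb upstream and 82.4 kb downstream of the TSS and the other over Gdf3, and Dppa3 lies in a gap of 14.6 kb.

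Nanog, on the plus strand at chr6:122707489-122714633, lay inside the widest peak of the region, chr6:122684491-122720504. That peak of 36014 bp was wider than all but 104 of the listed peaks. It reached 22998 bp upstream and 13015 bp downstream of the TSS, where the medians over the 10402 genes with a TSS inside a peak were 925 bp and 1214 bp. The peak thus lay mainly ahead of the gene, and it also covered the processed pseudogenes Gm10420 and Gm10224. All 5 exons and all introns of Nanog were covered. On the autosomes 537 protein-coding genes lay wholly inside 1 peak, and 38 of them did so in a peak wider than that of Nanog. The 5 such genes whose peaks were nearest to it in width were Ankrd35 (36005 bp), Kiss1 (36209 bp), Fam25c and Sncg, which share a peak of 36494 bp, and Cisd3 (37063 bp). The likeness is one of width alone.

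Gdf3 and Apobec1, both on the minus strand, shared 1 peak of 14502 bp at chr6:122599134-122613635, wider than 96.3% of all listed peaks. Gdf3, at chr6:122605403-122610087, was covered over its whole length of 4685 bp, and the peak reached 3548 bp upstream of its TSS and 10953 bp beyond it in the direction of transcription. From there the peak ran on over the space between the genes and across the Apobec1 TSS. It ended 3.31 kb inside Apobec1. Apobec1, at chr6:122577792-122602444, was covered over 21.3% of its 24653 bp, by this peak and by one of 1941 bp at chr6:122590839-122592779. Of its exon bases 19.0% were covered and of its intron bases 21.5%. Since 1 interval holds both starts, the list does not show how much of it belongs to either gene.

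Dppa3, on the plus strand at chr6:122626410-122630272, was the only gene of the 5 with no base of its body inside a peak. The nearest peak upstream, of 1246 bp, ended 8.05 kb before its TSS. The nearest downstream, of 667 bp, began 6.55 kb after the TSS and 2.69 kb after the gene's end. Both were narrow against the median of 2068 bp over all listed peaks. Dppa3 was nonetheless close to peaks for an unmarked gene. Over the 16139 genes with no peak within 1 kb the median distance from TSS to the nearest peak was 65.2 kb, and 90.6% of them lay farther from a peak than Dppa3 did. The promoter stayed unmarked with a window of 2 kb. Whether it had no signal or fell to a threshold of the peak calling was not tested, since the list holds no signal.

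Slc2a3, on the minus strand, was covered by peaks in a way that depended on the isoform. Its long isoform Slc2a3-202 starts at position 122801640, and the peak there, chr6:122800816-122802352, measured 1537 bp, with 0.712 kb upstream and 0.824 kb downstream of the TSS. The 3 shorter isoforms start between positions 122742262 and 122742920, inside a peak of 18080 bp at chr6:122726533-122744612. From the start of Slc2a3-201, at 122742745, that peak reached 1.87 kb upstream and 16.2 kb downstream, past the gene's 3' end. The wide peak was therefore at the start of the short isoforms and the narrow one at the start of the long isoform. Over the whole gene of 73832 bp, 74.6% lay in peaks. Of the exon bases of the long isoform 87.0% were covered and of its intron bases 70.8%.

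**Figure D2:**
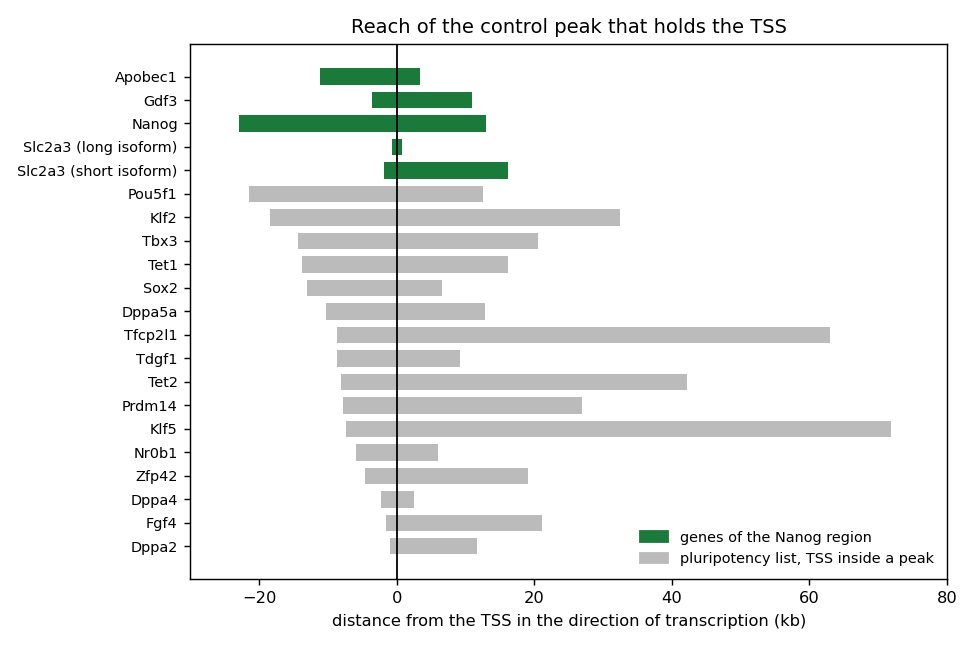
Reach of the control peak that holds the TSS, in kb along the direction of transcription, for the marked genes of the cluster (green; Slc2a3 with its isoforms 202 and 201) and for the 16 genes of the pluripotency list whose TSS lies inside a peak (grey). The Nanog peak reaches 23.0 kb upstream, farther than those of the 16 listed genes, among which Pou5f1 comes nearest with 21.5 kb.

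Between the genes, the space from the end of Dppa3 to the start of Nanog held 3 peaks besides the one that covers Nanog. They measured 667 bp, 1331 bp at chr6:122643935-122645265 and 13061 bp at chr6:122660915-122673975. The last of these, from 46.6 kb to 33.5 kb upstream of the Nanog TSS, was the widest peak of the region that touched no gene. Downstream of Nanog, 2 further wide peaks lay in the long isoform of Slc2a3, between the starts of its short and long isoforms. They measured 27394 bp at chr6:122750214-122777607 and 10055 bp at chr6:122779844-122789898, from 42.7 kb to 70.1 kb and from 72.4 kb to 82.4 kb from the Nanog TSS, and held no exon base of the isoforms used. By the annotation of the short isoforms, these peaks lay outside Slc2a3, upstream of it. In the 100 kb before the Nanog TSS 45.5% of the bases lay in peaks, and in the 100 kb after it 70.1%.

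The 20 peaks differed widely in size. They ranged from 667 bp to 36014 bp with a median of 1833 bp, near the median of 2068 bp over all listed peaks. This median depends on the flanks, and was 10055 bp over the 11 peaks between the outermost gene ends and 3247 bp with flanks of 200 kb. Of the 20, 6 were at least 10 kb wide (30%), against 7.51% of all peaks. Another 11 were under 2 kb, a width near the median of all listed peaks. The 5 widest made up 73.2% of the covered length. By position 6 peaks lay within 1 kb of a gene's main TSS, 2 within 1 kb of the TSS of another isoform only, 5 elsewhere in a gene and 7 between genes. The 7 peaks between genes, counted against coding and lincRNA genes, had a median width of 1246 bp. Among them, the peak of 4337 bp overlapped the antisense RNA gene Gm26826 and a further annotated gene, Gm5112. Between the outermost gene ends lay 11 peaks, and the flanks held the other 9. The widest peak of the flanks, 6738 bp at chr6:122873863-122880600, covered the start of Necap1.

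**Figure D3:**
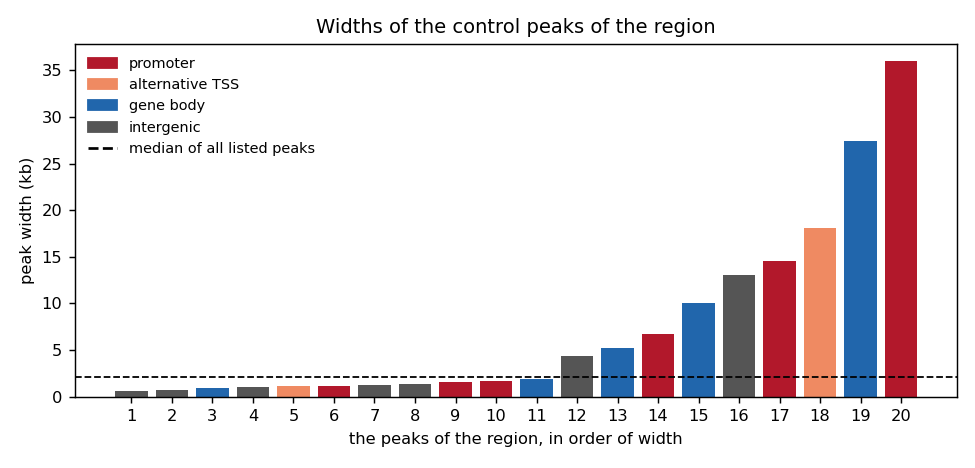
Width in kb of each of the 20 control peaks of the region, in order of width, coloured by position as in the map of the region. The dashed line is the median of all listed peaks, 2068 bp, and the 6 peaks of 10 kb and more include all 4 classes.

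Together the peaks covered 149 kb or 35.1% of the region, where peaks covered 3.43% of chromosome 6 and 3.45% of the autosomes. Without the flanks the covered share was 55.9%. The autosomes were cut into 5802 windows of the region's length, side by side. Of these, 1791 held no peak, the median window was covered over 0.993%, and 7 windows were covered more than the Nanog region. None of the 7 overlapped it. In the number of peaks the region stood less far out, with 40 windows that held more than 20 and a median of 2. Of the covered length 48.5% lay in the 5 genes, 35.6% between the outermost gene ends but outside genes, 10.7% in neighbouring genes and 5.29% in the flanks outside genes. The share in the 5 genes counts the long isoform of Slc2a3, and with gene ends from the basic annotation, which leaves that isoform out, it was 21.5%. The 5 genes were covered over 63.2% of their bases and the neighbouring genes, counted with the coding gene that is not reported here, over 15.3%.

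**Figure D4:**
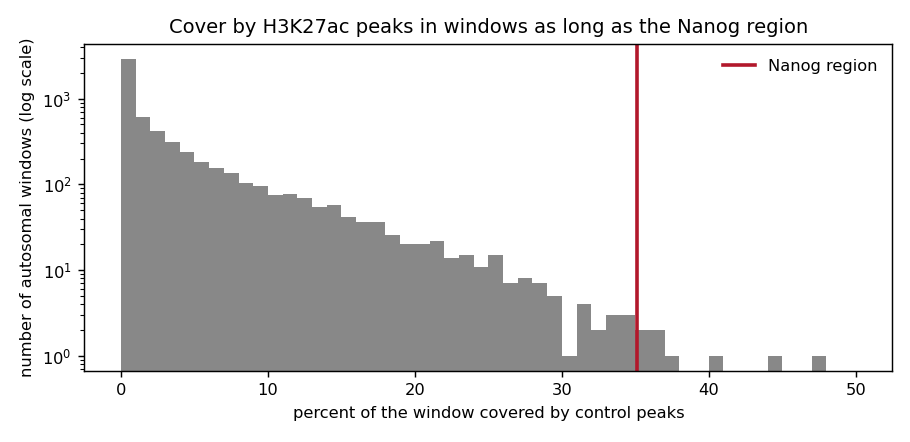
Number of autosomal windows (log scale) by the percent of their bases covered by control peaks, for 5802 windows as long as the Nanog region. The red line marks the region at 35.1%, with 7 windows beyond it.

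The peaks lay close together. The 19 gaps between them ranged from 2.24 kb to 56.9 kb with a median of 9.54 kb, against a median of 26.3 kb over the gaps on the autosomes. Joined across gaps of at most 12.5 kb, 9 peaks formed a chain from 46.6 kb upstream to 120 kb downstream of the Nanog TSS, chr6:122660915-122827052. The chain spanned 166 kb and ran over Nanog, Slc2a3 and the start of Foxj2, with 113 kb of it inside peaks (67.9%). Of the 15445 such chains and single peaks on the autosomes, 6 held more covered bases and 4 spanned more. Gdf3 and Apobec1 were not in this chain, and the gaps around the small peaks near Dppa3 set them apart from it.

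Of the 5 other coding genes of the region that are reported here, Rimklb, Foxj2 and Necap1 were marked and Mfap5 and C3ar1 were not. No lincRNA gene lay there. The marked neighbours had peaks of 1725 bp at Rimklb, an ATP-dependent ligase for N-acetylaspartylglutamate, 1182 bp at Foxj2, a forkhead factor, and 6738 bp at Necap1, an endocytosis protein. Each was narrower than the peak shared by Gdf3 and Apobec1. Mfap5, a microfibril protein, and C3ar1, a complement receptor, had their TSSs 8.83 kb and 17.7 kb from a peak.

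Genes with related functions elsewhere in the genome were taken as lists. Of 22 core and naive pluripotency genes 18 were marked, against 41.7% of all promoters. Of the same 22, 15 had their TSS in a peak at least 10 kb wide, against 4.59% of all genes. The 4 that were not marked at their longest isoform were Esrrb, Klf4, Nr5a2 and Sall4, of which Esrrb and Nr5a2 were marked at another isoform. Among the 16 with the TSS inside a peak the median width was 26767 bp. The peak of Nanog was wider than all but 4 of theirs, which were those of Klf5 (79196 bp), Tfcp2l1 (71785 bp), Klf2 (50763 bp) and Tet2 (50338 bp). The relatives of Dppa3 by name, Dppa2, Dppa4 and Dppa5a, which are not its sequence family, were marked, with peaks of 12608 bp, 4828 bp and 23087 bp.

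Smaller shares of the lists made for Gdf3, Apobec1 and Slc2a3 were marked than of the pluripotency list. Of 8 TGF-beta family ligands 3 were marked, Bmp4 (7282 bp), Inhbb (3683 bp) and Tgfb1 (2424 bp), all narrower than the peak at Gdf3. The Nodal pathway genes Lefty1 and Lefty2, which encode secreted inhibitors, and Nodal itself were not marked, with the TSSs 1.18 kb, 2.33 kb and 22.1 kb from a peak. Of 3 other cytidine deaminases Apobec3 (24189 bp) and Apobec2 (13512 bp) were marked, with peaks wider and slightly narrower than that at Apobec1, and Apobec4 was not. Of 11 other glucose transporters 3 were marked. Slc2a1, which encodes GLUT1, had a peak of 17584 bp, close in width to that at the short isoforms of Slc2a3. Slc2a8 had one of 5675 bp, and a peak lay 0.814 kb from the TSS of Slc2a7. These counts are read against 41.7% of all promoters marked.

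The cell type of the labels was set against marker genes. Of 10 markers of embryonic stem cells, Nanog among them, 8 were marked at their longest isoform, with a median width of 28860 bp. Over all genes 41.7% of promoters were marked in this way. At any isoform 9 of the 10 were marked, a count with no share over all genes to set beside it. Esrrb was marked only at another isoform, and Klf4 at none. Of 3 trophoblast markers 1 was marked (Eomes), of 3 primitive endoderm markers 2 (Gata4 and Gata6), of 3 neural markers 1 (Sox1) and of 3 fibroblast markers 0. Lists of 3 genes are too short to set their counts apart from the share over all promoters. Of these other markers, 2 had the TSS itself inside a peak, Gata4 in one of 1233 bp and Sox1 in one of 3136 bp.

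The promoters of 4 of the 5 genes lay between the medians of marked and unmarked promoters in CpG content. The ratio of observed to expected CpG within 1 kb of the TSS was 0.314 at Nanog, 0.319 at Gdf3, 0.385 at Apobec1, 0.416 at Dppa3 and 0.641 at the long isoform of Slc2a3. The median was 0.631 over marked promoters and 0.212 over unmarked ones. Of the marked promoters, 9.03% had a lower ratio than Nanog, 9.31% than Gdf3, 13.1% than Apobec1 and 15.4% than Dppa3. Of the unmarked promoters, 70.2% had a lower ratio than Nanog, 70.8% than Gdf3, 78.2% than Apobec1 and 80.7% than Dppa3. The unmarked Dppa3 promoter was thus close to those of the other 3 genes, and the promoter of the long Slc2a3 isoform was near the median of marked promoters. The ratio at the starts of the short Slc2a3 isoforms was not computed.

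The wide peaks were alike in GC content and less so in repeats, and the ranges over all listed wide peaks are not given here. All 6 had a GC content of 44.6% to 47.4%, with a median of 45.3% against 46.9% over all 1726 listed peaks of at least 10 kb. The other 14 ranged from 42.8% to 68.8%, with the highest values at the starts of Rimklb (68.8%) and Foxj2 (65.3%). Repeat-masked bases made up 26.4% to 46.5% of the wide peaks, with a median of 35.7% against 26.5% over all wide peaks, and the Nanog peak held the most. Over the 20 peaks the median was 30.4%, between 17.5% over all peaks and 33.5% of the autosomes. Repeats lower the number of reads that map to 1 place, and the part of this in the limits of the peaks was not tested.

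**Figure D5:**
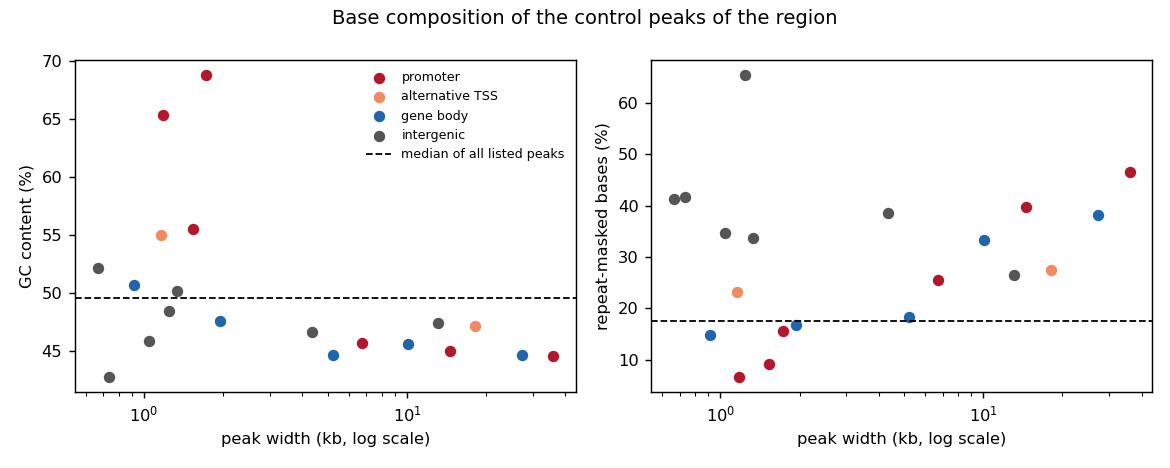
GC content (left, %) and repeat-masked bases (right, %) of the 20 control peaks against their width in kb (log scale), coloured by position. Dashed lines are the medians over all listed peaks, 49.5% for GC and 17.5% for repeats. The 6 peaks of 10 kb and more lie below the first line and above the second.

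The octamer occurred 5 times in the 20 peaks, in the peaks over Nanog (1), and in those of 27394 bp (3) and 10055 bp (1) in Slc2a3. The match upstream of Nanog lay between genes and the other 4 in the intron of the long isoform of Slc2a3. They are shown with 20 bases on both sides, read 5' to 3' on the strand of the match from the GRCm38 genome, because they mark where the Oct4 letters fall in the wide peaks. Capitals mark the octamer, and distances are from the Nanog TSS.
octamer 7.47 kb upstream: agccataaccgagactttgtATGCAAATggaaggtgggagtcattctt
octamer 44.4 kb downstream: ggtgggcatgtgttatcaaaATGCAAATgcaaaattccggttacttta
octamer 51.2 kb downstream: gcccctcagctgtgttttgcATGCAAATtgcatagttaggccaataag
octamer 69.5 kb downstream: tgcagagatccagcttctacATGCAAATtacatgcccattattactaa
octamer 74.3 kb downstream: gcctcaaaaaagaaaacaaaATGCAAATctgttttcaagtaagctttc

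The positions are chr6:122700020-122700027 on the minus strand, and chr6:122751861-122751868, chr6:122758724-122758731, chr6:122776984-122776991 and chr6:122781838-122781845 on the plus strand. Of the 5, the last lay in a repeat. Per kb the octamer was less frequent in the 20 peaks (0.0336) than in all autosomal peaks (0.0555) and on the autosomes (0.0897).

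The Esrrb-type motif, bound by the orphan receptor Esrrb, occurred 8 times in 5 of the 20 peaks. The peak of 27394 bp held 4 of the 8. Of the 8 matches 6 lay in repeats. The other 2 were at chr6:122606871-122606879, in an exon of Gdf3, and at chr6:122732279-122732287, in an intron of Slc2a3, both on the minus strand. The intronic match, the only one of them outside both repeats and exons, is shown with 20 bases on both sides and the motif in capitals.
Esrrb-type match in Slc2a3: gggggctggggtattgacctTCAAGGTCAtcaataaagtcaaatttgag

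Per kb this motif had 0.0537 matches in the 20 peaks, 0.0452 in all autosomal peaks and 0.0225 on the autosomes. The Klf-type motif had 7 matches or 0.0470 per kb, below 0.0988 in all autosomal peaks and near 0.0398 on the autosomes. The Stat-type motif had 5 matches, with 0.0336, 0.0379 and 0.0266 per kb in the same order. The short Sox-type motif had 73 matches or 0.490 per kb in the 20 peaks, against 0.493 in all autosomal peaks and 0.689 on the autosomes. The TATA box had 103 matches, with 0.692, 0.637 and 1.22 per kb in the same order. In the middle 1 kb of the peaks the TATA box was instead less frequent than in all autosomal peaks, with 0.414 against 0.534 per kb, and the Sox-type motif had 0.311 against 0.458. Motif densities were not computed over wide peaks alone, although wide peaks made up most of the covered length of the region. A match is a stretch of letters and not a bound site, and binding was not measured here.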

How the data were processed

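The deposited file was the authors' list of H3K27ac peaks in control mESCs, pooled over both replicates. Its only values, of another kind than counts or signal, are the start and end of each peak in bp on mm10. According to the study's methods, the authors trimmed reads with cutadapt, mapped them with bwa meme against a combined mouse and human reference, removed duplicates (Picard 2.9.1 per the submitters' processing notes) and poorly mapped reads (SAMtools 1.4), called peaks with LanceOtron, merged those within 2 kb, and removed peaks below height thresholds and away from ATAC-seq summits. Merging widens peaks where signal is dense, and a threshold can leave out a weak promoter. In the list the shortest gap on the autosomes was 2001 bp.

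Genes were those of type protein_coding or lincRNA in GENCODE M21 (GRCm38), an earlier release than that of the study: 27706 genes with 67283 transcripts, without the mitochondrial genome. Each gene took the TSS of its isoform with the greatest genomic length, promoters were ±1 kb, and an overlap of 1 bp counted. Exon and isoform values use transcripts of these types only. Sequence came from GRCm38 and repeats from its soft-masking. Windows of the region's length were set side by side from the first base of each autosome. The genes named were the 5 members, the coding genes in the region except 1 that is not reported here, the lists of related genes and markers, and the 5 autosomal coding genes wholly inside 1 peak nearest to that of Nanog in log2 width. The members, lists and motifs were chosen with earlier results of these data known. The functions were tested on simulated data. Python 3.11.15, numpy 2.4.6, pandas 2.3.3 and matplotlib 3.10.9 were used.

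With 1 pooled list there were no replicates to compare, and the list itself carries no depth. Read totals of the libraries are stated by the study and were not used here. The alternatives were other promoter windows, isoforms, overlaps and minimum widths, other flanks, other windows of comparison, exons only and the middle 1 kb of peaks. Gene ends and isoforms of the basic annotation, also for the shares in the 5 genes, were added after the data were seen.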

Additional observations from a re-analysis of the deposited data

How the results depend on the processing

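The count of 4 marked promoters of 5 was the same with windows of 500 bp and 2 kb, the TSS alone, any isoform, peaks of at least 1 kb, an overlap of 500 bp and, added after seeing the data, the longest isoform of the basic annotation. The number of peaks fell from 20 to 11 without flanks and stayed within 1.5 times of 20 under the other settings. The covered share of 35.1% became 41.2% with flanks of 50 kb, 26.9% with 200 kb, 55.9% without flanks, 34.6% with peaks of at least 1 kb and 38.8% with gene ends from the basic annotation, which leave out the long isoform of Slc2a3. The percentile of the region among windows of its length, 99.9, became 99.8 with shifted windows, 99.8 with windows that hold a protein-coding gene and 99.7 on chromosome 6 alone. The median width of 1833 bp became 1941 bp with flanks of 50 kb, 3247 bp with 200 kb, 10055 bp without flanks and 4337 bp with peaks of at least 1 kb, so that its place below or above the median of all peaks depends on how the region is drawn. The median GC content of 47.3% became 47.4% with flanks of 50 kb, 47.2% with 200 kb, 47.4% without flanks, 47.5% with the basic annotation and 49.3% in the middle 1 kb. The middle 1 kb of the peaks held no octamer, composite or Stat-type match, and fewer Sox-type (0.311 against 0.490 per kb) and TATA-box matches (0.414 against 0.692 per kb) than the whole peaks. No paired analysis was possible because both control replicates were pooled into 1 list, and for the same reason no replicate could be left out. The list gives no heights, and an unlisted promoter may still carry signal.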

Other observations

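The order of lines in the list was not explained in the sources used here. Of the 20 peaks of the region 5 stood in the first 500 of its 22973 lines: those over Nanog (line 30), Gdf3 and Apobec1 (67), the 27394 bp peak in Slc2a3 (85), the 13061 bp peak between Dppa3 and Nanog (121) and the peak at the short isoforms of Slc2a3 (432). After line 10000, where most lines of the list lie, stood 11 of the 20. The peak of 10055 bp in Slc2a3 stood at line 4477, far below the other wide peaks of the region and below the median line of 1808 over all listed peaks of at least 10 kb. The peak of 4337 bp at chr6:122809687-122814023, between the long start of Slc2a3 and Foxj2, stood earlier, at line 2836. The small peaks beside Dppa3 stood at lines 15021 and 19226.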
